A study of Mus musculus with 8 samples.

Results

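Rab proteins are small GTPases that mark the membranes of the cell and steer vesicle traffic between them. The family was taken here as the rows of the deposited mouse gene table whose symbol is Rab followed by a number and at most a letter and a digit, which gave 59 genes of the 30445 in the table. The hearts came from C57 mice whose aorta had been narrowed by surgery 8 weeks earlier (transverse aortic constriction, or TAC), which puts the left ventricle under pressure. There were 4 libraries from wildtype mice and 4 from mice labelled Mertk knockdown, all of them operated, and poly(A) RNA of the whole heart sample was sequenced as paired ends. MERTK is a receptor tyrosine kinase through which macrophages take up dying cells, and the study's title places it with the type I interferon response. How and in which cells Mertk was lowered, the age of the mice and whether each replicate is its own mouse are not in the labels, so p-values measure only the spread among the libraries and some of it may be technical.

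A Rab protein is bound to GDP when it is idle and to GTP when it works. Guanine nucleotide exchange factors (GEFs) load it with GTP on a membrane, GTPase-activating proteins (GAPs) end the active state, and the GDP dissociation inhibitors take the idle protein back into the cytosol. In the GTP form it recruits effectors, such as tethers and motor adaptors, and each compartment carries its own members: Rab1 and Rab2 between endoplasmic reticulum and Golgi, Rab5 on early endosomes, Rab4 and Rab11 on the routes that recycle receptors to the cell surface, Rab7 on late endosomes. In cardiac muscle the recycling members are known for returning adrenergic receptors and the glucose transporter GLUT4 to the plasma membrane.

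Of the whole family, Rab4a was the member called, and it was about 3-fold lower in the libraries labelled Mertk knockdown. A called gene is one with an adjusted p (Benjamini-Hochberg) under 0.05 in the quasi-likelihood test of edgeR, run over all 17787 genes with enough counts to be tested. Of the 55 Rab members tested, 1 was called lower, where 0.371% of all tested genes were called lower, and 0 were called higher, where 0.275% of all tested genes were. The 4 members that did not pass the filter on low counts were Rab25, Rab26, Rab38 and Rab44. Without adjustment, 6 of the 55 members (10.9%) had p under 0.05, beside 12.4% of all tested genes, so that share was no higher than the background. The 6 were Rab4a, Rab37, Rab43, Rab40b, Rab3d and Rab17. The levels of the groups did not overlap in 3 members (5.45%), Rab4a, Rab37 and Rab43, beside 8.07% of all tested genes.

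Total counts ran from 59287621 to 71571173 per library, and the level that 3 counts give was at most 0.0520 CPM (counts relative to the TMM-scaled library total), a floor for counting error only. Cardiomyocyte markers were high in every library, which goes with the heart label (summed level 28275 to 46057 CPM over 7 genes). Mertk itself was not lower in the libraries that carry its name, with a mean of 11.05 ± 0.870 CPM in wildtype against 11.86 ± 0.951 CPM (SD, n = 4 each; log2 fold change 0.10, SE 0.11, adjusted p 0.766 by edgeR). The group is therefore called the labelled knockdown throughout, and each direction below is a difference between labels. Liver transcripts were unevenly spread: 17 hepatocyte markers summed to 343 CPM in wildtype library 1 and to between 46.9 and 51.5 CPM in the other wildtype libraries, against 288 to 347 CPM in the labelled knockdown. Atrial transcripts were high in wildtype libraries 3 and 4 and in labelled knockdown library 4 (201 to 606 CPM over 5 markers) and between 1.03 and 3.71 CPM elsewhere. The values with these transcripts taken into account are given for Rab4a and Rab4b and for some of the other named genes. A gene without such values may have shifted too: over all alternative analyses Rab28 ran from −0.03 to 0.17 and Rab3a from −0.01 to 0.24 in log2 fold change.

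Rab4a and Rab4b are paralogs that sort cargo from early endosomes back to the cell surface on a fast route. Rab4a (ENSMUSG00000019478) lies on chr8:123805985-123835287 on the plus strand of mm10, and Rab4b (ENSMUSG00000053291) on chr7:27168424-27178896 on the minus strand, both with 8 exons in the transcript models compared here. Their coding sequences in GENCODE release M21 (657 bases for Rab4a, 642 for Rab4b) were 74.8% identical over 642 aligned bases. The sequences below show how far reads can tell the paralogs apart, at a conserved site and at the divergent end; bases are 5′ to 3′ on the coding strand, counted from the first base of the start codon, and capitals mark positions that differ between the paralogs. The first pair is the phosphate-binding loop that holds the nucleotide, bases 58 to 81 of Rab4a and 43 to 66 of Rab4b, with 4 differences in 24 bases.
Rab4a loop: ggAaAtgcGggaactggcaaatcT
Rab4b loop: ggCaGtgcTggaactggcaaatcA
The second pair is the last 60 coding bases before the stop codon, bases 595 to 654 and 580 to 639, which encode the tail that ends in the prenylated cysteines, with 24 differences.
Rab4a tail: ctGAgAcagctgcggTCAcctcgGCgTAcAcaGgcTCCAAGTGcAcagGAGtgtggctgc
Rab4b tail: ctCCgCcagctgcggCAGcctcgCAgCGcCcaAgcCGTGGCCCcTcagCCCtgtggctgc
The longest stretch that the transcripts of both genes share is 23 bases of coding sequence, shorter than the reads, and it starts at base 439 of Rab4a and 424 of Rab4b.
Shared stretch: gagaatgagctgatgttcctgga
Of the 1752 different 31-base words in the transcripts of Rab4a, 2 occur in any other gene, Rab8a, so its counts share little sequence with other rows. Rab4b shares 1324 of its 2113 words, mostly with Gm21983, a transcript model on the same strand that runs through the gene and was counted at 0.111 CPM on average.

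Rab4a stood at 11.02, 8.43, 12.02 and 9.86 CPM in wildtype libraries 1 to 4. In the labelled knockdown it stood at 3.41, 3.82, 3.09 and 3.08 CPM. The groups were far apart: the lowest wildtype library held more than the highest labelled knockdown library by over the whole spread of either group. The means were 10.33 ± 1.55 and 3.35 ± 0.350 CPM (SD, n = 4 each), from 559 to 726 counts per wildtype library and 197 to 253 per labelled knockdown library. The fitted level was 3.08-fold lower in the labelled knockdown (95% interval 2.44 to 3.89), or −1.62 as a log2 fold change (SE 0.15, adjusted p 0.0013 by edgeR). The two-sided exact permutation p on log2 CPM was 0.0286, the smallest that 4 libraries against 4 can reach, and 0.0857 adjusted over the 3 permutation tests of the pair, which misses 0.05. In deposited FPKM (fragments relative to gene length and to the library's fragment total), Rab4a was 5.61, 4.46, 5.76 and 5.26 in wildtype and 1.71, 1.97, 1.63 and 1.62 in the labelled knockdown, so the per-length scale kept the groups apart too.

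Rab4b stood at 7.85, 9.505, 6.07 and 9.42 CPM in wildtype libraries 1 to 4 and at 5.87, 4.304, 7.76 and 6.47 CPM in the labelled knockdown. These ranges overlapped, since labelled knockdown library 3 held more than wildtype library 3. The means were 8.21 ± 1.62 and 6.10 ± 1.43 CPM (SD, n = 4 each). Rab4b did not pass the test (log2 fold change −0.43, SE 0.20, 95% interval −0.88 to 0.02, edgeR adjusted p 0.437; exact permutation p = 0.114). The interval holds both no difference and a fall of up to 0.88 on the log2 scale, so a smaller shift of Rab4b in the direction of Rab4a could not be told from none with these libraries.

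Whether the paralogs differed from each other was tested by their ratio within a library, which does not depend on the scaling between libraries. Rab4a had 1.40, 0.887, 1.98 and 1.05 times the counts of Rab4b in wildtype libraries 1 to 4. In the labelled knockdown it had 0.581, 0.888, 0.398 and 0.476 times the counts. The ratio was lower in the labelled knockdown but wildtype library 2 and labelled knockdown library 2 met at nearly the same value. The log2 ratio was 0.34 ± 0.508 in wildtype and −0.84 ± 0.497 in the labelled knockdown (SD, n = 4 each), a difference of −1.18 with an exact permutation p of 0.0571, two-sided (0.0857 adjusted over the same tests), which misses 0.05. A larger difference in Rab4a than in Rab4b was therefore not established, although only Rab4a passed its own test. The ratio difference also missed 0.05 in 12 of 13 alternatives, among them the one without wildtype library 2 (−1.35, exact permutation p = 0.0571). Some of these misses were fixed in advance. Permutation within same-numbered libraries (the replicate block) and the subsets by liver or atrial transcripts have too few arrangements to reach 0.05. The exception was the one without labelled knockdown library 2, the library that met the other group (−1.40, unadjusted exact permutation p = 0.0286, the smallest that 4 against 3 can reach).

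**Figure D1:**
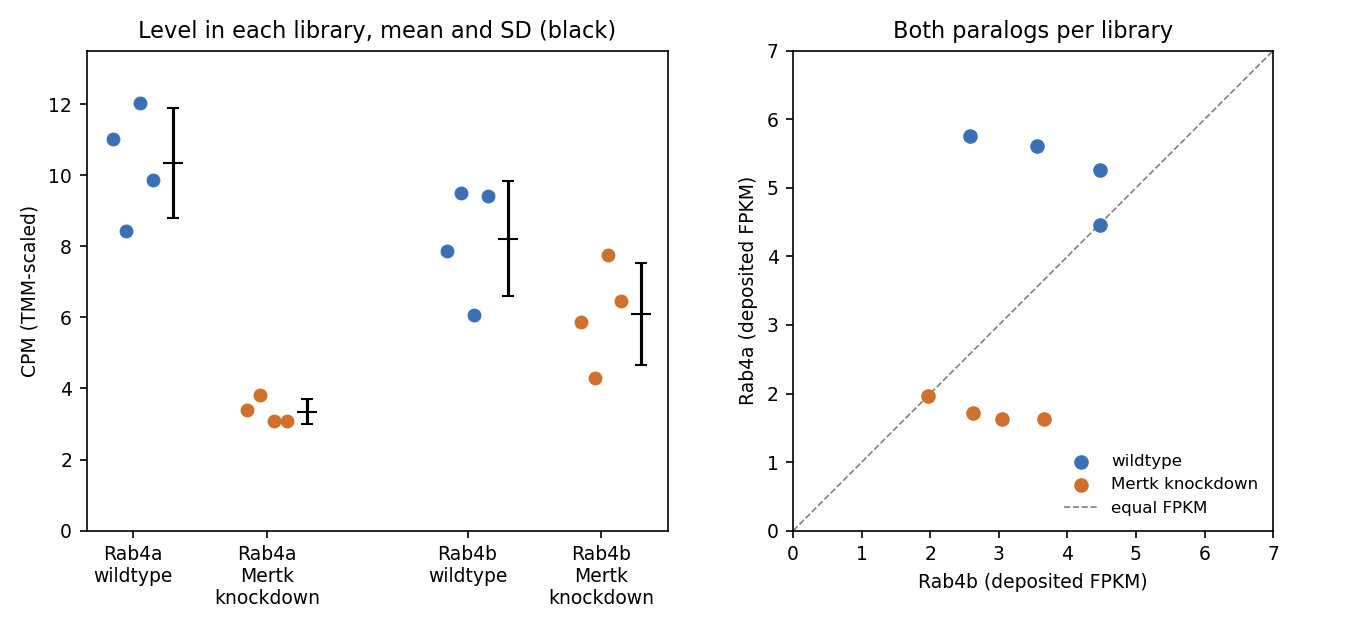
Left, CPM of Rab4a and Rab4b in each library (points) with mean and SD (black bars, n = 4 each); right, deposited FPKM of Rab4a against Rab4b, 1 point per library, with a dashed line of equal FPKM. Rab4a separates the groups at 8.43 CPM and above against 3.82 CPM and below, while Rab4b overlaps, and library 2 of each group lies on the line of equal FPKM.

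On the per-length scale the shares of the pair overlapped between the groups. Rab4a made up 61.2%, 49.9%, 69.1% and 54.0% of the FPKM of Rab4a plus Rab4b in wildtype libraries 1 to 4. It made up 39.5%, 50.0%, 30.9% and 34.8% in the labelled knockdown. Rab4a was the more abundant paralog in 3 of the 4 wildtype libraries and the less abundant, or level with Rab4b, in the labelled knockdown. The FPKM of the pair together was 9.04 ± 0.576 in wildtype and 4.56 ± 0.575 in the labelled knockdown (SD, n = 4 each), and the ranges, 8.34 to 9.73 and 3.93 to 5.29, did not overlap. By mean FPKM, Rab4a was in place 22 of the 59 members in wildtype and in place 33 in the labelled knockdown, where Rab4b went from 26 to 29.

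The call of Rab4a held in 17 of 18 alternative analyses, with log2 fold changes from −1.76 to −1.20, the smallest on log2(FPKM + 1), a scale that shrinks the change of low genes. Within the libraries that carry liver transcripts (wildtype library 1 and all labelled knockdown libraries) it was −1.71. That fit has 1 wildtype library, so its place among the 17 takes no account of the spread in wildtype. With the hepatocyte score as a covariate it was −1.76 with an edgeR adjusted p of 0.0294. Within the libraries low in atrial transcripts (wildtype 1 and 2 against labelled knockdown 1 to 3) it was −1.49 and the call was lost (edgeR adjusted p 0.145), in a fit that called 6 genes in all. Rab4b was not called in any of the 18, with values from −0.57 to −0.28.

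**Figure D2:**
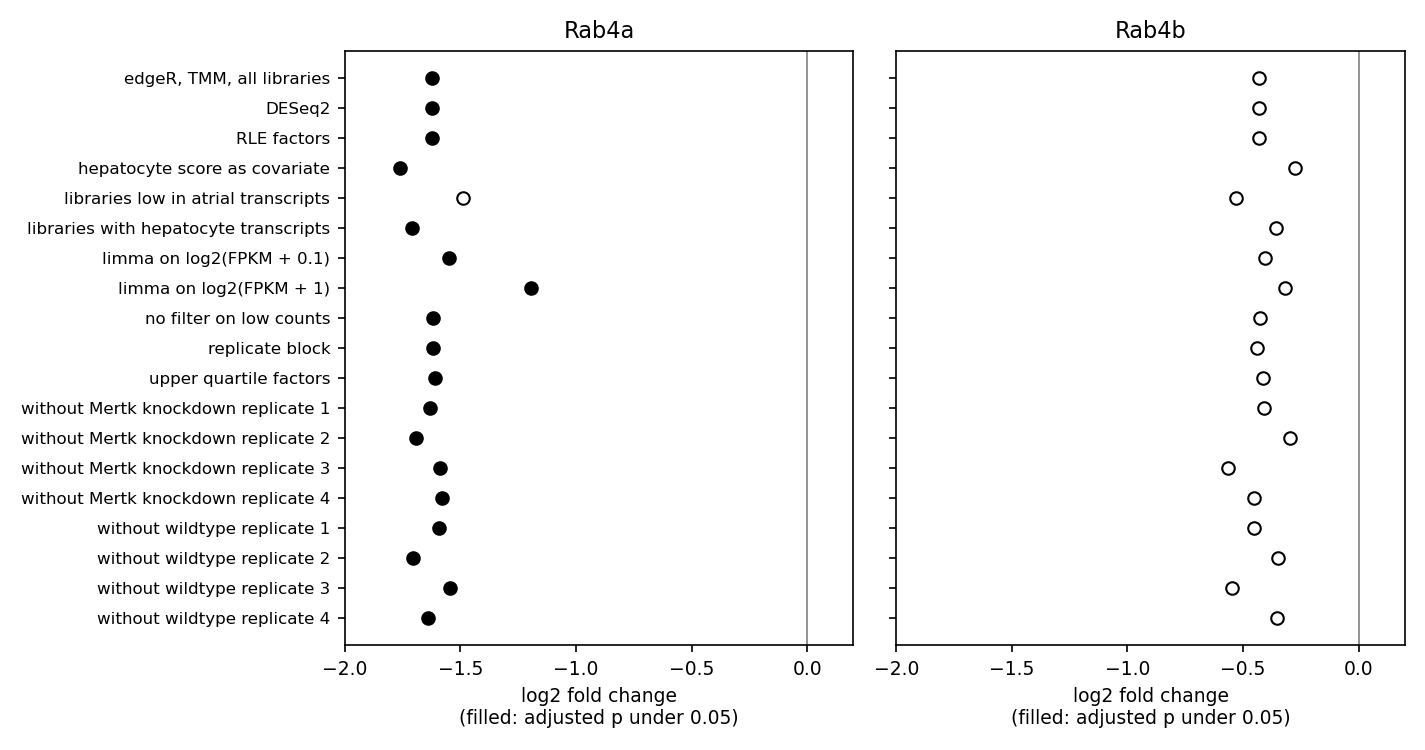
Log2 fold change (labelled knockdown over wildtype) of Rab4a (left) and Rab4b (right) in the edgeR analysis of all libraries and in each of the 18 alternatives, filled where the adjusted p is under 0.05. Rab4a is filled in each setting but the libraries low in atrial transcripts (−1.49), and every Rab4b point is open. The setting of libraries with hepatocyte transcripts holds 1 wildtype library.

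Other measures moved with the groups in which Rab4a was lower, and in bulk heart RNA fewer cells of a type and less RNA per cell cannot be told apart. Of 16 marker lists, 4 had summed levels that did not overlap between the groups, where 8.07% of all tested genes, taken singly, did not overlap. The cardiomyocyte sum was higher in the labelled knockdown (28275 to 39316 CPM in wildtype, 41169 to 46057 CPM in the other group, 0 of 7 genes called). Its genes did not move alike: Myh6 had a log2 fold change of 0.74 and Actc1 0.57, the others −0.12 (Tnnt2) to 0.28 (Ryr2). Myh6 alone ran from 8207 to 16012 CPM in wildtype and from 16866 to 20918 CPM in the labelled knockdown. The endothelial sum was higher too (491 to 572 against 603 to 750 CPM, 0 of 6 called), with genes from 0.05 (Pecam1) to 0.68 (Kdr). Neutrophil markers were lower (5.63 to 7.68 against 2.74 to 5.15 CPM, 0 of 5 called), with genes from −2.06 (S100a9) to −0.18 (Mmp9), all at 4.77 CPM or less. A list of type I interferon-stimulated genes was lower too (685 to 1377 against 313 to 448 CPM, 11 of 30 called lower, where 0.371% of all tested genes were). Macrophage markers overlapped (254 to 391 against 222 to 270 CPM, 0 of 10 called). No marker was at 0 in all 8 libraries, and the part of these lists in the Rab4a result was not tested.

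The rows around Rab4a did not move with it past the test. Within 100 kb on chromosome 8 there were 9 other rows, 0 of them overlapping the gene, and 0 of the 5 that could be tested were called. The nearest, 2810455O05Rik, had a log2 fold change of −0.49 (SE 0.48) at under 1 CPM, and the next, Ccsap, one of −0.42 (SE 0.34). Nup133, a nuclear pore gene at 11.8 to 17.1 CPM and so the row closest to Rab4a in level, had −0.12 (SE 0.13). Acta1 had 0.25 (SE 0.38) and Gm29773 0.94 (SE 0.56), so apart from Nup133 the tested rows were measured loosely and smaller shifts in them could be missed. Mertk lies on another chromosome, 2.

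Among the other recycling members none was called. Rab11b, which serves the slower recycling route, stood at 174, 117, 151 and 126 CPM in wildtype libraries 1 to 4 and at 111, 127, 124 and 106 CPM in the labelled knockdown, overlapping ranges (log2 fold change −0.28, SE 0.13, edgeR adjusted p 0.443). With the hepatocyte covariate its value was −0.59 and it was not called (edgeR adjusted p 0.262). In the libraries with liver transcripts its value was −0.57. Rab11a, its paralog on the same route, had −0.10 (SE 0.08) and Rab35, which acts early in recycling from the surface, −0.10 (SE 0.09). Rab14, which works between Golgi and endosomes, had 0.11 (SE 0.08). These 3 abundant members were measured closely enough that their 95% intervals stay within 1.5-fold. Rab17, an epithelial recycling Rab, was low: 0.501, 0.422, 0.867 and 0.489 CPM in wildtype and 0.558, 1.36, 1.21 and 1.04 CPM in the labelled knockdown, with 1 labelled knockdown library inside the wildtype range (0.87, SE 0.38, edgeR adjusted p 0.395; 1.17 in the libraries low in atrial transcripts). Rab25 held at most 0.0946 CPM in any library. Over all 7 tested recycling members, Rab4a and Rab4b included, the median log2 fold change was −0.10, beside −0.00 over all tested genes.

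None of the 7 early endosome members was called, and their median was −0.04. Rab5a, Rab5b and Rab5c drive the fusion of early endosomes, and their log2 fold changes were −0.04 (SE 0.10), −0.08 (SE 0.09) and −0.12 (SE 0.15). Rab5b had the highest FPKM of the group, 17.1 to 20.4 over the 8 libraries. Rab21 and Rab22a, also on early endosomes, had 0.15 (SE 0.10) and 0.14 (SE 0.10). Rab20, known from maturing phagosomes, had the smallest p of this group: it ran from 8.15 to 12.1 CPM in wildtype and from 10.1 to 17.0 CPM in the labelled knockdown (0.34, SE 0.20, edgeR adjusted p 0.534). Its row is overlapped on the opposite strand by E230013L22Rik (15.0 to 39.1 and 9.64 to 20.1 CPM), and the sources used here do not say whether strand was used in the deposited counting, so reads of the pair may be mixed. With both rows added the order of the group means turned, to 34.6 ± 12.1 CPM (wildtype) against 27.4 ± 8.13 CPM (SD, n = 4 each), with overlapping ranges. With the hepatocyte covariate Rab20 alone had 0.55.

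The late endosome and lysosome group held the most abundant Rab of these hearts and 0 called members of 10. Rab7, which leads late endosomes to fuse with lysosomes, was at 68.0 to 84.8 FPKM over the 8 libraries and at 197 to 218 CPM in wildtype against 191 to 244 CPM in the labelled knockdown (0.03, SE 0.10). Its 95% interval was −0.20 to 0.26. Rab7b, a separate gene that acts between late endosomes and the trans-Golgi network, had the smallest p of the group, with 4.89, 6.47, 3.89 and 5.95 CPM against 3.92, 3.96, 4.07 and 4.78 CPM (−0.34, SE 0.18, edgeR adjusted p 0.505; −0.13 with the hepatocyte covariate). All 4 labelled knockdown libraries lay inside the wildtype range. Rab9, which returns receptors from late endosomes to the Golgi, and Rab34 had values near 0 (0.01, SE 0.12, and 0.00, SE 0.19). Rab9b, Rab36, Rab39 and Rab39b were all low, at 1.26 CPM or less in every library, with SEs of 0.38 to 0.97 that leave room for changes of more than 2-fold.

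In the endoplasmic reticulum and Golgi group, 12 of 12 members were tested and 0 called. The carriers of bulk traffic had log2 fold changes near 0: Rab1a and Rab1b, which act from endoplasmic reticulum to Golgi, had 0.03 (SE 0.08) and −0.06 (SE 0.09), Rab2a −0.03 (SE 0.08) and Rab6a, a Golgi Rab, 0.05 (SE 0.10). Rab43, a Golgi Rab, stood at 19.4, 21.1, 16.7 and 20.2 CPM in wildtype libraries 1 to 4. It stood at 12.8, 16.1, 15.7 and 16.1 CPM in the labelled knockdown. The ranges did not overlap but lay close, and the gene did not pass the test (−0.35, SE 0.11, edgeR adjusted p 0.237). Gm45140, a transcript model on the same strand that shares 4076 of the 5452 31-base words of Rab43 (74.8%), moved the other way in some libraries, at 1.498, 0.0151, 0 and 0 CPM in wildtype and 5.17, 0.634, 0.266 and 4.15 CPM in the labelled knockdown. With both rows added, the ranges overlapped (16.7 to 21.1 against 16.0 to 20.2 CPM), so the groups were apart for the Rab43 row alone but not for both rows together. Rab30, another Golgi Rab, ran from 3.49 to 6.68 CPM in wildtype and from 4.68 to 8.73 CPM in the labelled knockdown (0.44, SE 0.24, edgeR adjusted p 0.507).

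The members of exocytosis and cilia had 0 of 8 called and log2 fold changes from −0.35 to 0.12. Rab10, which brings GLUT4 vesicles to the surface, had 0.09 (SE 0.09) at 113 to 120 CPM in wildtype and 115 to 133 CPM in the labelled knockdown. Rab12, a substrate of the LRRK2 kinase, had −0.07 (SE 0.13) and a wide wildtype range, 106 to 160 CPM, around the labelled knockdown libraries at 119 to 134 CPM. Its value was −0.37 with the hepatocyte covariate (edgeR adjusted p 0.506) and −0.32 in the libraries with liver transcripts. Rab8a and Rab8b, which carry vesicles from the Golgi to the surface and to cilia, had −0.03 (SE 0.10) and 0.03 (SE 0.14). Rab28, a ciliary Rab, had the smallest p of the group (0.12, SE 0.09, edgeR adjusted p 0.647).

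Of the 7 members of regulated secretion, 5 were tested and 0 called. Rab37, known from secretory granules, was at 0.583, 0.558, 0.503 and 0.937 CPM in wildtype libraries 1 to 4 and at 1.21, 1.10, 1.504 and 1.72 CPM in the labelled knockdown. Every labelled knockdown library was above every wildtype library, at a level near 1 CPM. Rab37 did not pass the edgeR test (1.09, SE 0.31, adjusted p 0.180; 1.38 with the hepatocyte covariate, adjusted p 0.425), while DESeq2 called it (adjusted p 0.0379), where DESeq2 called 3.76% of all tested genes. Rab3d, a granule Rab, was at 21.5, 22.1, 19.2 and 20.4 CPM against 17.1, 19.6, 16.8 and 16.0 CPM, with labelled knockdown library 2 reaching into the wildtype range (−0.26, SE 0.10, edgeR adjusted p 0.306). Rab3a, the Rab of synaptic vesicles, had the highest FPKM of the group (8.03 to 11.7) and a log2 fold change of 0.07 (SE 0.11). Rab26 and Rab44 were not tested, at no more than 0.287 CPM in any library.

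The smaller groups held no called member either. Rab27a, which docks lysosome-related organelles and exosome-bearing endosomes at the plasma membrane, was at 4.21, 5.45, 4.58 and 5.97 CPM in wildtype and at 4.19, 4.89, 1.66 and 2.92 CPM in the labelled knockdown, low in libraries 3 and 4 of that group and within or beside the wildtype range in the others (−0.56, SE 0.30, edgeR adjusted p 0.494; −0.24 with the hepatocyte covariate). Rab32, of the same group, had −0.10 (SE 0.33), and Rab27b 0.35 (SE 0.43). Rab40b, which carries a SOCS box and joins a cullin ubiquitin ligase, was at 4.79, 5.58, 2.65 and 4.196 CPM in wildtype and at 2.85, 3.11, 2.07 and 2.60 CPM in the labelled knockdown (−0.70, SE 0.24, edgeR adjusted p 0.274; −0.95 in the libraries low in atrial transcripts). The groups overlapped through wildtype library 3, the lowest of its group. Its relative Rab40c was at 9.89 to 11.4 against 9.64 to 9.94 CPM (−0.15, SE 0.10). Rab42, which was in no role group, stayed under 1 CPM in every library and had an SE of 1.11.

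**Figure D3:**
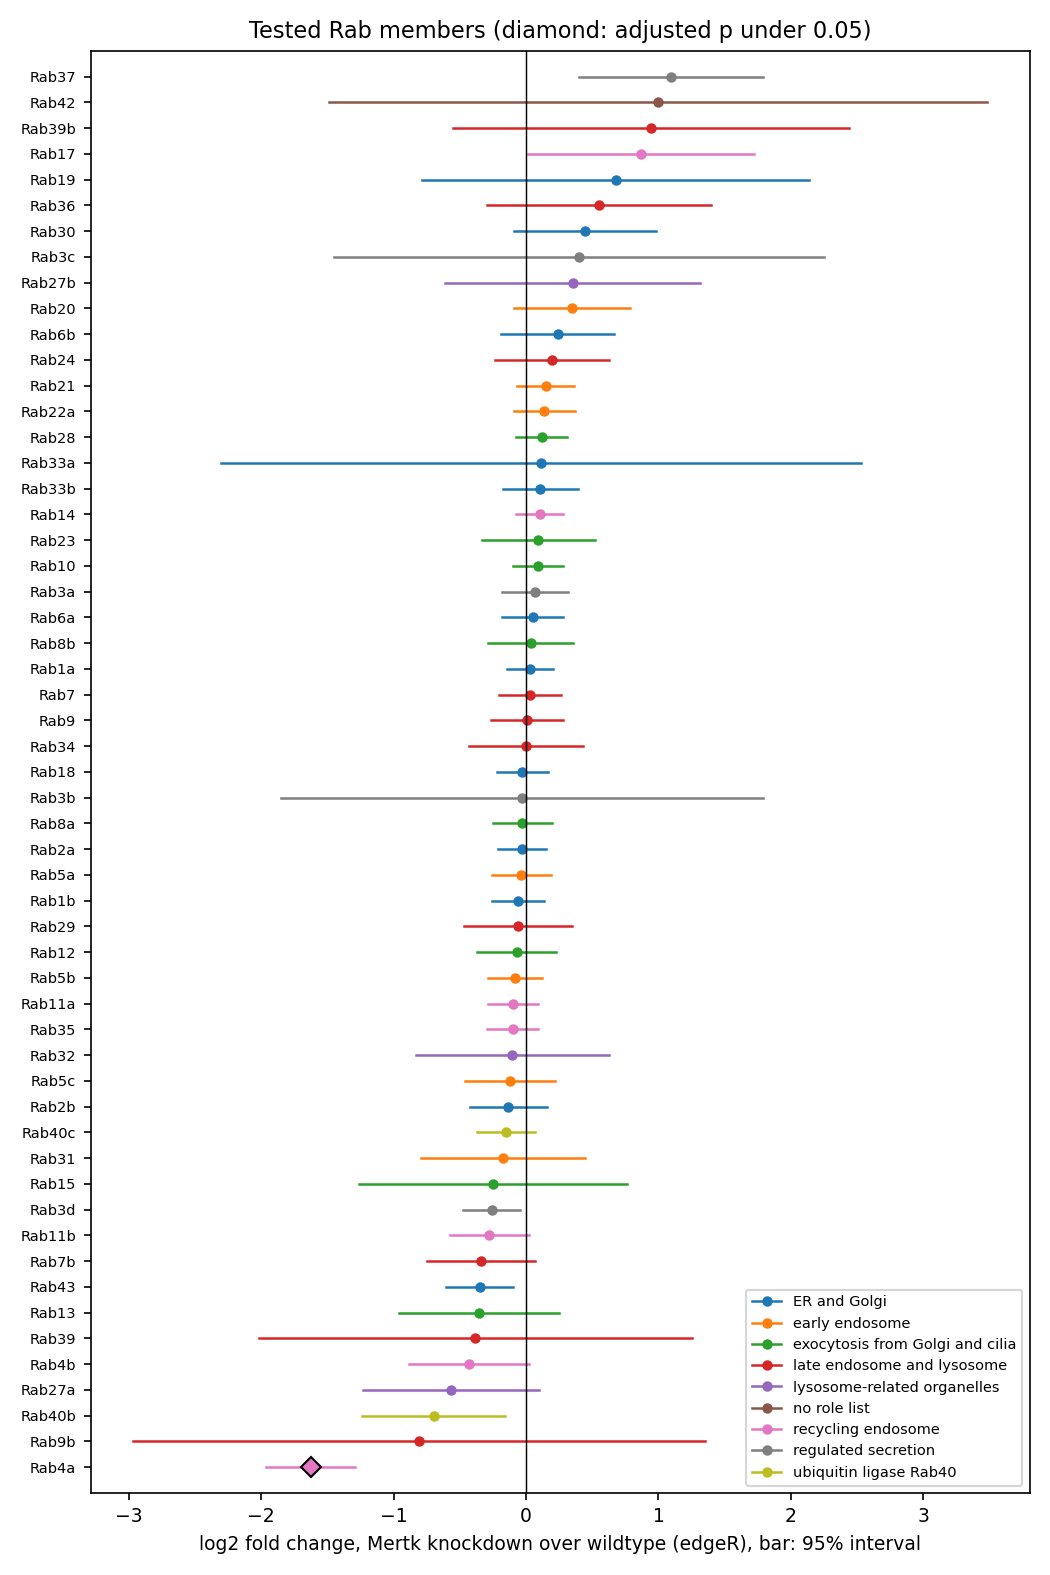
Log2 fold change (labelled knockdown over wildtype, edgeR) of the 55 tested Rab members with 95% intervals, coloured by role group and ordered by size, with a diamond where the adjusted p is under 0.05. Rab4a, at −1.62, is the diamond; wide bars belong to low members such as Rab42 (SE 1.11).

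Apart from Rab4a, the values of the family lay evenly around 0. Of the 55 tested members 27 had a log2 fold change above 0 and 28 below, and the median was −0.03 (−0.01 without Rab4a). The median size of the change, whatever its sign, was 0.14 for the members and 0.19 for all tested genes. The summed CPM of all 59 members was 1830 to 1944 in wildtype and 1792 to 1892 in the labelled knockdown. The 95% interval lay within 2-fold for 39 of the 55 members and within 1.5-fold for 29. For the 29 members at a mean of 10 CPM or more, these numbers were 29 and 24, so a change of Rab4a's size was outside the interval of each abundant member. For the 11 tested members under 1 CPM they were 0 and 0, so none of these low members was measured to within 2-fold.

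On the per-length scale the Rab content of these hearts was concentrated in a few members. The mean FPKM was 73.5 for Rab7, 50.1 for Rab1b, 41.9 for Rab2a, 39.0 for Rab12, 31.02 for Rab10 and 25.7 for Rab1a, and these 6 held 53.3% of the summed FPKM of the family. The next were Rab11b (19.2), Rab5b (19.0), Rab11a (16.3) and Rab6a (16.2), so members of the endoplasmic reticulum, Golgi, early, recycling and late endosomes were among the first 10. There were 14 members over 10 FPKM and 23 under 1 FPKM. Neighbours in this order mostly could not be ranked: of the 58 neighbouring pairs 55 overlapped in their range over the 8 libraries, and the pairs that did not were Rab7 and Rab1b, Rab1b and Rab2a, and Rab10 and Rab1a. Rab4a and Rab4b were neighbours in places 26 and 27, at 3.503 and 3.30 FPKM over all libraries, but Rab4a only as the mean of groups that do not overlap.

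**Figure D4:**
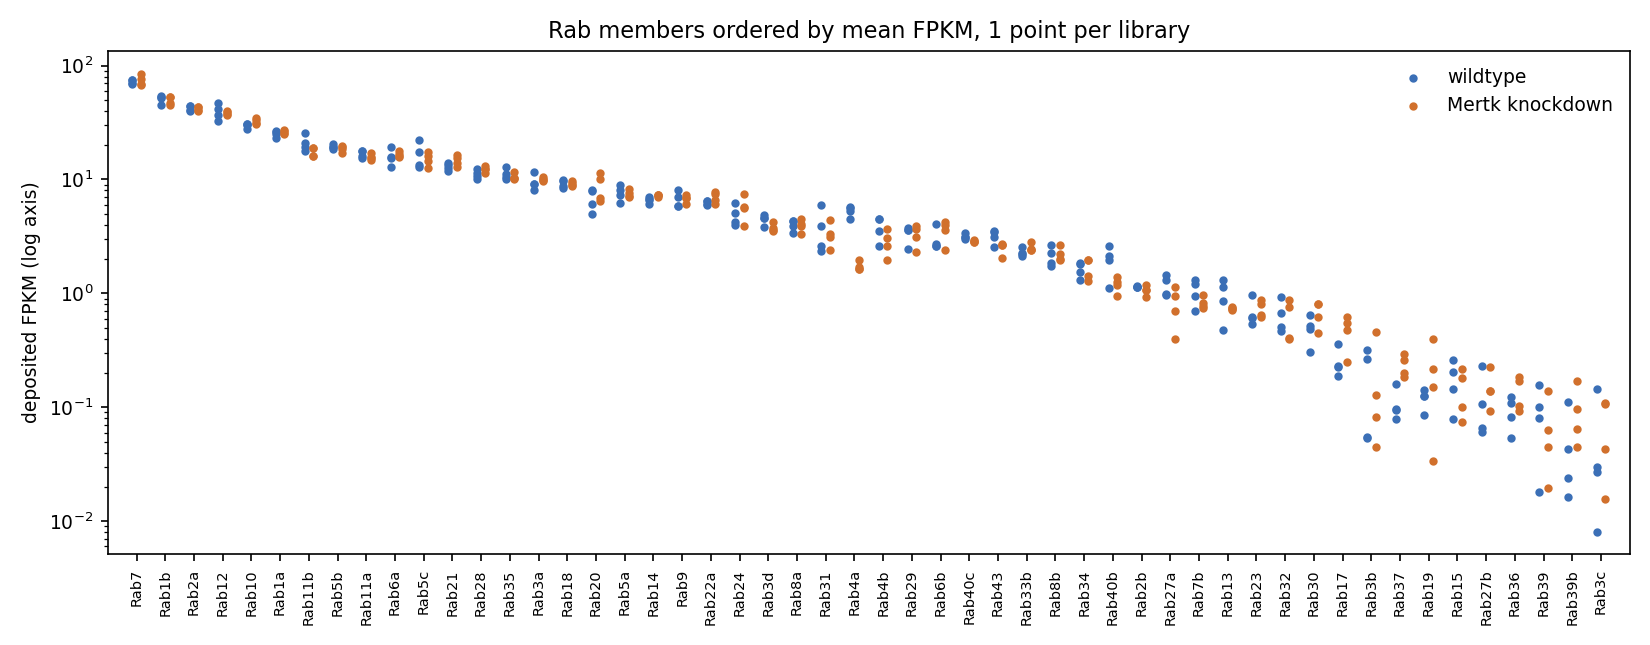
Deposited FPKM (log axis) of the 52 Rab members above 0 in every library, 1 point per library, blue for wildtype and orange for the labelled knockdown, ordered by mean FPKM. Rab7 leads at a mean of 73.5 FPKM, and Rab4a shows a clear gap between the colours (4.46 FPKM and above against 1.97 and below).

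The proteins that load, switch and read the Rabs were examined as lists. Of 139 partner genes listed, 138 were in the table and 136 could be tested, and 0 were called in either direction by edgeR (either direction, 0.647% of all tested genes). At an unadjusted p under 0.05 there were 10 of the 136 (7.35%, beside 12.4% of all tested genes), and DESeq2 called 0 (beside 3.76%). The log2 fold changes were above 0 in 68 and below 0 in 68, with a median of −0.00. None was called among 37 GEFs, 41 GAPs, 43 effectors, 7 genes of prenylation and GDP dissociation, 5 Rab-like proteins, and 3 genes of Rab phosphorylation.

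The effectors that bind Rab4, named here for that binding and outside the naming rule, had log2 fold changes near 0. Rabep1 (rabaptin-5), which bridges Rab4 and Rab5, was at 41.2 to 48.4 CPM in wildtype and 38.7 to 47.3 CPM in the labelled knockdown (−0.06, SE 0.09). Rbsn (rabenosyn-5), which also binds both, had 0.03 (SE 0.09), Rufy1 0.07 (SE 0.08) and Gripap1 0.07 (SE 0.12). For each of these 4 the ranges overlapped between the groups. The genes that attach the prenyl anchor and extract Rabs from membranes did not pass either: Gdi2 had −0.07 (SE 0.10), and Rabggta, a subunit of the Rab geranylgeranyl transferase, 0.17 (SE 0.10, edgeR adjusted p 0.534).

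In each other list the gene with the smallest p did not pass. Optn (optineurin), a Rab8 effector, was at 90.2, 63.5, 79.8 and 66.1 CPM in wildtype and at 113, 115, 86.0 and 93.0 CPM in the labelled knockdown (0.44, SE 0.14, edgeR adjusted p 0.224). The ranges overlapped at wildtype library 1 and labelled knockdown library 3. Dennd4b, a GEF of the DENN family, was at 38.0 to 58.3 against 58.9 to 77.8 CPM (0.44, SE 0.16, adjusted p 0.294), just apart. Tbc1d24, a protein with the TBC domain of Rab GAPs, was at 10.1 to 15.8 against 15.6 to 18.4 CPM (0.43, SE 0.14, adjusted p 0.249). Rabl2, a Rab-like protein of cilia, had −0.37 (SE 0.18, adjusted p 0.443), and Lrrk1, the kinase that phosphorylates Rab7, −0.24 (SE 0.18, adjusted p 0.637). With the hepatocyte covariate Optn had 0.15, Dennd4b 0.10 and Tbc1d24 0.21, and the sign of Lrrk1 turned (0.12).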

How the data were processed

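The authors deposited 1 table of 30445 genes with read counts and FPKM for each of 8 libraries, per the file headers. The tools named by the submitters' processing notes are HISAT2 2.2.1, StringTie 2.1.6, cutadapt 1.9, edgeR and DESeq2, and the build is mm10. What each tool did, the annotation release and whether counting used strand are not given in the sources used here, so overlapping rows may share reads. All 59 members were found in GENCODE M21, 53 with the same start and end.

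The deposited counts were tested with edgeR 4.0.16 in R 4.3.3 (glmQLFit with robust dispersion, glmQLFTest, two-sided; TMM, filterByExpr, no covariate), adjusted by Benjamini-Hochberg over 17787 genes. Log2 fold changes are labelled knockdown minus wildtype. Their SE was obtained by dividing by the square root of the F statistic. The deposited FPKM were used for levels between genes and in limma 3.58.1 on log2(FPKM + 1) and log2(FPKM + 0.1). The alternatives tried were upper quartile and RLE factors, no filter, DESeq2 1.42.0, limma, leaving out each library, the replicate block, a hepatocyte covariate, and subsets by hepatocyte or atrial transcripts. The paralog ratio was tested by exact permutation, with 0.5 added to each count.

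On simulated counts with the real means, the test of labelled knockdown against wildtype recovered 8% of genes changed 1.5-fold, 60.9% at 2-fold and 72.9% at 4-fold among 17348 genes, with 7 false calls of 109. Libraries of the same group differed beyond sampling noise (37.9 to 198.7 for chi-square over its degrees of freedom), so none looked like a library deposited again.

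The members, role groups, partner and marker lists were chosen with earlier results of these data known. Named genes are Rab4a, Rab4b, called members, the 10 other members with the smallest p, the 6 with the highest FPKM, the smallest p and highest FPKM of each role group, the smallest p of each partner list, and Mertk. Further members are named to illustrate their group, and 1 partner gene is counted but not reported here by name. The St5 gene of the partner list and Sftpc and Scgb1a1 of the epithelial markers were not matched.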

Additional observations from a re-analysis of the deposited data

Results flagged for a closer look

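Rab43 in the labelled knockdown had 1 library apart from the rest of its group: library 1 was the lowest at 12.79 CPM, while the other 3 lay between 15.75 and 16.10 CPM. The gap to the nearest library was 0.894 of the range of the group, above the critical value of Dixon's criterion for 4 values. Of 58 groups of 4 libraries examined this way (29 named genes in both groups) this was the 1 found. Chance gives about 1 group in 20, so 1 of 58 was not above that rate. The same library held the most Gm45140, the overlapping row on the same strand, at 5.17 CPM. Labelled knockdown library 4 held 4.15 CPM of that row, with Rab43 at 16.08 CPM, and the cause of the low library was not tested.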

How the results depend on the processing

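The number of Rab members called was 1 in 16 of 18 alternatives; DESeq2 called 2 (Rab4a and Rab37) and the libraries low in atrial transcripts gave 0, where Rab4a had −1.49 and its call was lost with 6 genes called in all. Leaving out each library kept Rab4a called at −1.70 to −1.54. The median of the members was near 0 throughout and changed sign: 0.0456 with the hepatocyte covariate, 0.0287 in the libraries with hepatocyte transcripts, and −0.0327 to 0.0368 on leaving out each library, where wildtype library 4 and labelled knockdown library 1 turned it. The paralog ratio difference ran from −1.40 to −0.96 on leaving out each library. With the replicate block, Rab4a had −1.62 (edgeR adjusted p 0.0314), Rab4b −0.44 and the median was −0.03, and 24 genes were called over the whole table, beside 115 without the block. The ratio then had an exact permutation p of 0.25, from a test with too few arrangements to reach 0.05. Same-numbered libraries did not pair (correlations 0.06, 0.00, −0.01 and 0.18, and 3 of 8 libraries matched their own number best). Over the whole table, DESeq2 called 668 genes, limma 57 and 70, leaving out each library 44 to 265 and the hepatocyte covariate 12. Of the 26 other named genes 25 stayed on their side of the threshold in all alternatives, and the exception was Rab37 by DESeq2 (1.09). The cause of these shifts was not tested. For the 11 tested members under 1 CPM no 95% interval lay within 2-fold.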

Other observations

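Many Rab rows share ground with other rows of the table. Of the 59 members 29 overlap at least 1 other row, 18 of them a row on the opposite strand. By sequence, 19 members shared no 31-base word of their GENCODE M21 transcripts with any other gene, and 13 shared more than 10% of their words. The highest shares after Rab43 (74.8%) and Rab4b (62.7%) were those of Rab2b (59.6%) and Rab24 (54.4%), and Rab24 shared its words with Prelid1 alone. Rab7, the most abundant member, shared 18.4%, mostly with its pseudogene Rab7-ps1. Levels of these members depend on how the deposited counting placed shared reads. These 4 members were picked for their shares after the values were seen.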
